A study of Homo sapiens with 4 samples.

Results

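Of 5326 genomic regions measured by ChIP-seq in HCCLM3 cells, 824 (15.5%) held at least 2-fold more HNF4A than IgG reads at low glucose and less than 2-fold more at high glucose. These low-glucose-only regions were chosen by the deposited log2 levels: HNF4A minus IgG was at or above 1 in the low-glucose comparison and below 1 in the high-glucose comparison. The same rule put 1670 regions (31.4%) above the limit at both glucose levels, 548 (10.3%) above it at high glucose only and 2284 (42.9%) above it at neither. The choice used the reads of all 4 libraries of the study. Every read value below therefore describes the regions and tests nothing, whereas length, position, closest gene and promoter letters played no part in the choice.

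HCCLM3 is an established human hepatocellular carcinoma line. ChIP-seq sequences the DNA that an antibody pulls down with its protein, and IgG, an antibody with no specific target, shows how much DNA comes down without one. There were 4 libraries, 1 per group: HNF4A at low glucose, IgG at low glucose, HNF4A at high glucose and IgG at high glucose. All 4 carry the same labels for cell line and tissue. Per the labels' protocols, stable overexpression lines of HCCLM3 were made with a lentiviral vector under a CMV promoter. The labels name neither the gene carried by that vector, nor which libraries came from such a line, nor the glucose concentrations. The growth protocol gives the same high-glucose medium for all 4 libraries, those titled low glucose included. The purpose stated for the series was to find HNF4A target genes under different glucose conditions. With 1 library per group no difference between glucose levels has a replicate check, and glucose level cannot be told apart from any other difference between the libraries.

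HNF4A is a nuclear receptor of liver, kidney and gut that binds DNA as a homodimer. Its preferred sites are direct repeats of a half-site spaced by 1 base, and in hepatocytes it occupies genes of lipid, glucose, bile acid and drug metabolism and of secreted plasma proteins. A ratio over IgG can differ between conditions through either antibody's reads, and the values of both are given throughout.

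The letters of the regions themselves were not used here. To show what an HNF4A site looks like beside genes of this class, the RefSeq promoters of the closest genes (GRCh38.p14, 250 bases before to 50 after the gene start) were searched on both strands for CAAAGTCCA and CAAAGGTCA, the core of the HNF4A site. The regions are in hg19, and whether any of them covers the promoter of its gene was not determined. A promoter was listed for 596 of the closest genes, and 5 of them (0.839%) held a match. The share was 1.24% (13 of 1051) for genes closest to regions above the limit at both glucose levels, 0 of 359 for those at high glucose only and 0.407% (6 of 1473) for those at neither. Over all promoters in the table it was 0.769% (210 of 27305), so the low-glucose-only genes held the motif about as often as promoters in general. The full direct repeat of the AGGTCA half-site spaced by 1 base, which overlaps the second core where that base is A, was found in 1 promoter of the class, that of ACBD3, a Golgi scaffold protein. Of the 5 matches, the 4 before the gene start are shown with 25 bases on each side and the match in capitals. TGGACTTTG is CAAAGTCCA read on the other strand.
HAAO, chr2:42792671-42792729, minus strand: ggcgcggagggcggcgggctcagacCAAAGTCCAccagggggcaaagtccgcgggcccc
BOD1, chr5:173616667-173616725, minus strand: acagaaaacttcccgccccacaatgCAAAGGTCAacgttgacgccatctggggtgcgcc
EGFL7, chr9:136658636-136658694, plus strand: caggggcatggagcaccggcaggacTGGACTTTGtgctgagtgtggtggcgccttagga
MISP, chr19:750975-751033, plus strand: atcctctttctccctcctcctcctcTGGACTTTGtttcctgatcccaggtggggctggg

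HAAO, an enzyme of tryptophan breakdown, had its match at positions -121 to -113 from the gene start. The region closest to it held 38 HNF4A and 17 IgG reads at low glucose, and 44 and 30 at high glucose. The match in BOD1, which acts in chromosome segregation, lay at -50 to -42, and its region held 19 and 5 reads at low and 29 and 17 at high glucose. For EGFL7, a secreted factor of blood vessels, the match lay at -195 to -187, and 40 and 12 reads at low stood beside 62 and 29 at high glucose. MISP, an actin-bundling protein of the mitotic cortex, had its match at -112 to -104, with 47 and 18 reads at low and 67 and 34 at high glucose. In all 4 regions both antibodies gave more reads at high glucose, and IgG differed by the larger factor. With libraries scaled by their sums over all regions, HNF4A was higher at high glucose in 3 of the 4 and IgG in all 4.

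Across the 824 regions, HNF4A reads were nearly equal at the 2 glucose levels, and IgG reads were lower at low glucose. The median region held 37 HNF4A and 13 IgG reads at low glucose, and 44 and 28 at high glucose. Over all 5326 regions the medians were 35 and 18 at low, and 50 and 26 at high glucose. Per kilobase and scaled by relative library size, the median of the 824 was 36.5 for HNF4A and 13.6 for IgG at low glucose, against 33.1 and 17.0 over all regions. At high glucose it was 39.1 and 27.6, against 41.7 and 25.1. Set beside all regions, the class was thus a little high in HNF4A and low in IgG at low glucose, and a little low in HNF4A and high in IgG at high glucose. The 824 took 11.98% of the reads of all regions in the HNF4A library at low glucose, 10.8% in that at high glucose, 6.77% in IgG at low glucose and 10.9% in IgG at high glucose. The share in IgG at low glucose stood apart from the other 3, and the rule itself favours regions with few reads in that library.

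As log2 ratios of scaled reads, HNF4A over IgG had a median of 1.35 at low glucose, with quartiles of 1.16 and 1.69 and a range of 1.0 to 5.50. At high glucose the median was 0.58, with quartiles of 0.24 and 0.82 and a range of -3.47 to 1.0. The limit of 1 was passed by 46.8% of all regions at low glucose and by 41.6% at high glucose, and these are the comparisons the rule used. HNF4A stood below IgG at high glucose in 112 of the 824 (13.6%), against 15.8% of all regions. The drop from low to high glucose had a median of 0.92 and quartiles of 0.55 and 1.35. It was under 0.5 in 179 regions and at least 1 in 350.

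**Figure D1:**
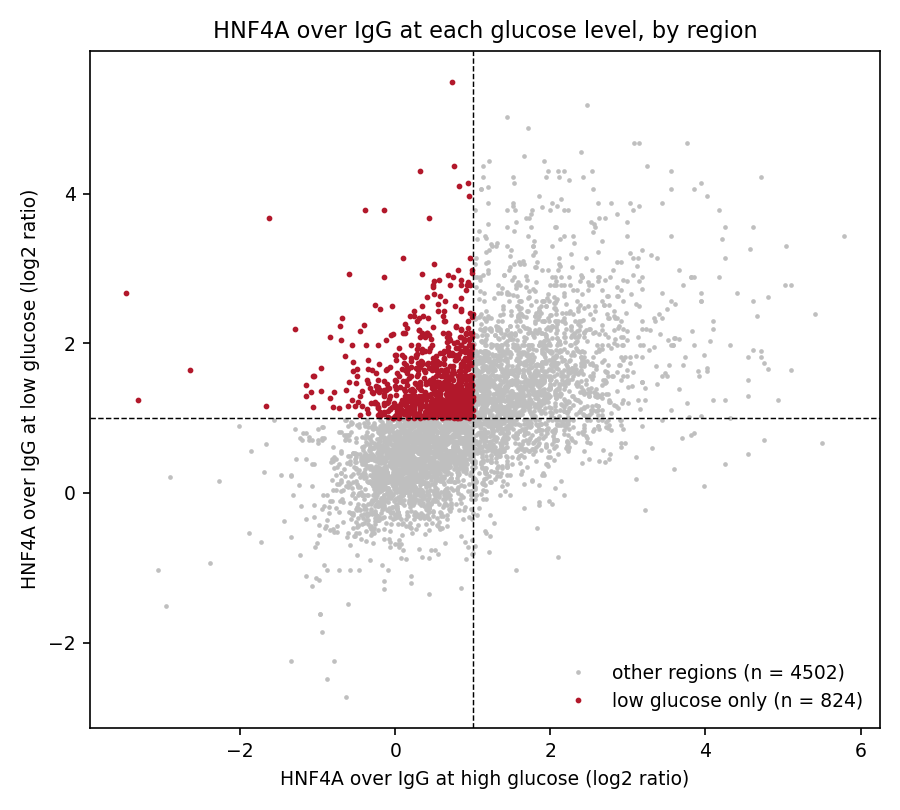
Each point is a region, placed by its log2 HNF4A over IgG ratio at high glucose (horizontal axis) and at low glucose (vertical axis), with the 824 low-glucose-only regions coloured. The class fills the area left of 1 and above 1 and is densest near the corner where both limits meet. Its medians are 0.58 at high and 1.35 at low glucose.

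Splitting that drop by antibody, the median log2 ratio of high over low glucose in the 824 was 0.12 for HNF4A, against 0.36 over all regions, and 1.08 for IgG, against 0.51. Regions above the limit at both glucose levels had IgG at 0.42 and those at neither at 0.51, while those at high glucose only had -0.17. More HNF4A at high than at low glucose was found in 524 of the 824 and less in 300, a direction that turned to 235 higher and 589 lower when libraries were scaled by their sums over all regions. For IgG the counts were 818 with more and 6 with less at high glucose, or 788 and 36 with that other scaling. The other scaling moved the all-region median of HNF4A from 0.36 to 0.05 and that of IgG from 0.51 to 0.20. Measured from the all-region medians, which removes the scaling, HNF4A lay below in 621 and above in 203 regions (median -0.24), and IgG lay above in 725 and below in 99 (median 0.57). With the deposited scaling, IgG moved by more than HNF4A in 796 of the 824 (96.6%), against 63.9% of all regions. The rule makes the ratio of high over low glucose larger for IgG than for HNF4A in every region of the class. The 524 with more HNF4A at high glucose were therefore counted by construction. In the others, which antibody moved more depends on the scaling.

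**Figure D2:**
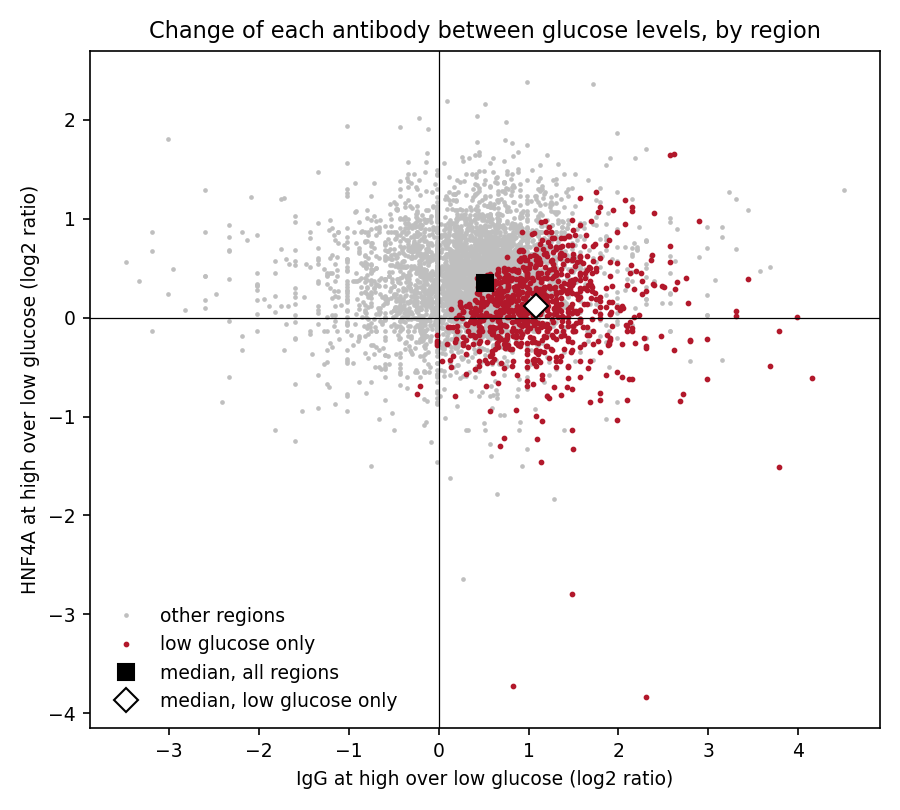
Log2 ratio of high over low glucose for IgG (horizontal axis) and HNF4A (vertical axis) in each region, the 824 coloured and the other 4502 in grey. The coloured points gather near 0 on the HNF4A axis and above 0 on the IgG axis, with medians of 0.12 and 1.08.

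IgG was at least 2-fold higher at high glucose in 449 of the 824 (54.5%), where the share over all regions was 19.4%, and at least 2-fold higher at low glucose in 0, against 3.38%. HNF4A was at least 2-fold higher at low glucose in 12 (1.46%), against 0.713% of all regions, and at least 2-fold higher at high glucose in 11 (1.33%), against 6.78%. With exact 95% counting intervals on the reads, the IgG ratio lay wholly above 0 in 476 regions (57.8%; all regions 26.2%) and wholly below in 0 (all regions 1.93%). The HNF4A ratio lay wholly above 0 in 73 (8.86%; all regions 25.8%) and wholly below in 15 (1.82%; all regions 0.826%). The rule itself favours regions with many HNF4A and few IgG reads at low glucose, and with few HNF4A and many IgG reads at high glucose. The shares of both antibodies therefore describe the choice and are no evidence about it. These intervals, and those in parentheses below, cover counting error only, since reads copied by PCR without molecular identifiers are not independent molecules.

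The limits cut through a continuous spread. Just inside the low-glucose limit were ZNF350, a zinc finger repressor gene, at a log2 ratio of 1.0002, CDK5R2, an activator of the kinase CDK5, at 1.001, and GABARAPL1, an autophagy gene, at 1.004. Just outside it were SPAG7 at 0.998, ZNF181 at 0.998 and PHF20L1 at 0.995. Just inside the high-glucose limit were CTAGE1, GDI2 and CIDEC at 0.999, 0.999 and 0.998. Just outside it were PDGFA, a growth factor gene, and BHLHA15, a secretory cell transcription factor gene, both at 1.001, and ALDH3B1 at 1.002. In 328 of the 824 (39.8%) the low-glucose ratio was below 5/4 on the log2 scale, and in 266 the high-glucose ratio was at or above 0.75. The interval at low glucose held the limit in 750 regions (91.0%) and that at high glucose in 590 (71.6%), and 13 regions lay clear of both limits. The interval of the difference between the 2 ratios lay wholly above 0 in 226 regions (27.4%). At this depth most of the class was therefore not separable from regions just across a limit.

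Because the 2 glucose levels have different IgG libraries, HNF4A was also set against the mean of both IgG libraries. Only 74 of the 824 (8.98%) then met the same 2 limits. Of the others, 131 (15.9%) were above the limit at both glucose levels, 241 (29.2%) at high glucose only and 378 (45.9%) at neither. Among all 5326 regions this common background left 87 at low glucose only, 1695 at both, 975 at high glucose only and 2569 at neither. Much of this shift is fixed by the rule. IgG was lower at low glucose in 818 of the 824, so the mean lowers their low-glucose ratios and raises their high-glucose ratios. Only regions with less HNF4A at high glucose can then meet both limits. Those were 300 of the 824 with the deposited scaling and 589 with libraries scaled by their sums.

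**Figure D3:**
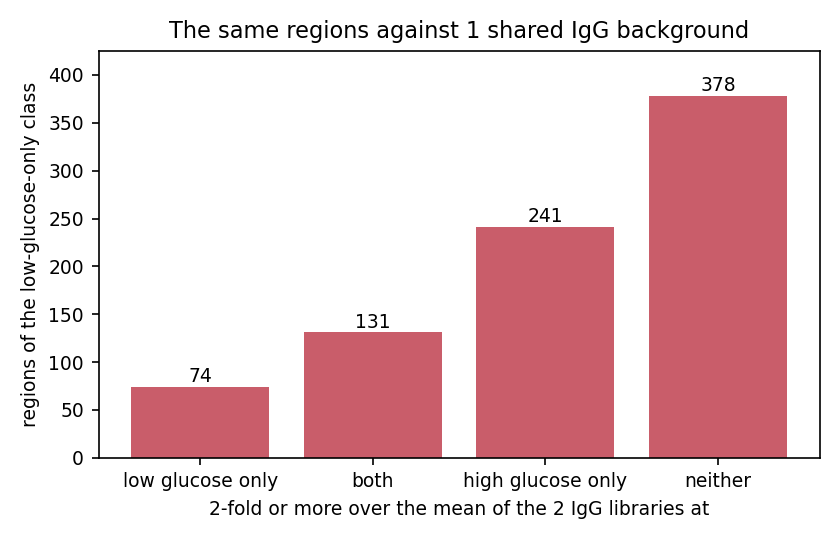
Number of the 824 regions in each class once HNF4A at both glucose levels is set against the mean of the 2 IgG libraries. The bars stand at 74 for low glucose only, 131 for both, 241 for high glucose only and 378 for neither. Much of this shift is fixed by the rule, which favours regions with few IgG reads at low glucose.

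The 10 regions with the largest drop, among those with a mean HNF4A level at or above the median of all regions, differed in IgG more than in HNF4A. TELO2, which helps to assemble mTOR and related kinases, had the largest (chromosome 16, 1542738 to 1543997). Its region held 41 HNF4A and 9 IgG reads at low glucose, and 50 and 62 at high glucose. The log2 ratio over IgG was 2.16 (1.1 to 3.39) at low and -0.46 (-1.02 to 0.10) at high glucose. Between glucose levels HNF4A stood at 0.15 (-0.47 to 0.78), or -0.16 with libraries scaled by their sums, and IgG at 2.77, or 2.45. ARF4, a GTPase of Golgi traffic, had 63 HNF4A reads at low and 67 at high glucose, while IgG went from 12 to 53 (chromosome 3, 57582148 to 57583648). Its ratio over IgG was 2.37 (1.46 to 3.39) and then 0.19 (-0.35 to 0.74). CDC42EP3, an effector of the GTPase CDC42, had 63 and 57 HNF4A reads and 15 and 56 IgG reads (chromosome 2, 37898510 to 37900203). NCKAP1, a subunit of the actin-regulating WAVE complex, had 49 and 54 against 11 and 50. The retinaldehyde reductase gene DHRS3 had 43 and 51 HNF4A reads against 6 and 24 IgG reads, with ratios of 2.82 (1.58 to 4.34) and 0.94 (0.21 to 1.71). TSPAN1, a tetraspanin gene, had 39 and 46 against 5 and 21. POP5, an RNase P subunit gene, and TMEM138, a ciliary membrane protein gene, had 45 and 39, and 42 and 46, HNF4A reads against 16 and 45, and 16 and 56, IgG reads. LOC101928708 and LOC100287036 completed the 10. In all 10 the counting interval of HNF4A between glucose levels held 0, or in 8 with libraries scaled by their sums and below 0 in the other 2. That of IgG lay above 0 in all 10 with either scaling.

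The regions with the most HNF4A reads at low glucose were long, at 2494 to 4072 bp, and their drops ran from 0.18 to 0.86, all below the class median of 0.92. CGN, which encodes the tight junction protein cingulin, led with 243 HNF4A and 113 IgG reads at low glucose, and 317 and 154 at high glucose (chromosome 1, 151481162 to 151484777). Its ratios over IgG were 1.08 (0.75 to 1.41) and 0.90 (0.61 to 1.18), and these intervals overlapped. FAM83C-AS1, an antisense RNA gene, had 211 and 99 reads at low and 260 and 152 at high glucose, and UBE2R2, a ubiquitin-conjugating enzyme gene, had 175 and 75, then 225 and 120. LTBP4, a matrix protein that stores latent TGF-beta, had 182 and 75, then 226 and 112. The region of the microRNA gene MIR4530 held 164 HNF4A reads at low and 275 at high glucose, with IgG at 75 and 146. Its HNF4A was higher at high glucose, at 0.61 (0.33 to 0.90), or 0.30 (0.02 to 0.59) with libraries scaled by their sums, although the rule placed it at low glucose only. For most of these 10 regions the direction of HNF4A depended on the scaling. Its log2 ratio of high over low glucose was positive for 8 and negative for 2 under the deposited scaling. Scaled by sums, it was positive for MIR4530 alone and negative for the other 9. The IgG ratio was positive for all 10 either way, but its counting interval lay above 0 for 9 and then for only 3. Among these 10 the interval of the drop lay above 0 in 3. SCAF11, a splicing factor gene, dropped by 0.70 (0.12 to 1.28), with 184 and 61 reads at low and 190 and 94 at high glucose (chromosome 12, 46383234 to 46386091). ZNF827, a zinc finger gene, dropped by 0.86 (0.24 to 1.48), with 151 and 49, then 170 and 92 (chromosome 4, 146857598 to 146860522). GAB1, a docking protein of growth factor receptors, dropped by 0.60 (0.01 to 1.19), with 143 and 58, then 184 and 104.

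By the authors' deposited table of the low-glucose comparison, 26 of the 824 had an unadjusted p under 0.05 for HNF4A above IgG, where 3.04% of all regions did. This table is the one the rule used, so its p-values describe the choice. The lowest false discovery rate (FDR) among the 824 in the authors' deposited table was 0.820, and 0 passed 0.05. FOXN3, a forkhead repressor gene, had the lowest p of the class in the authors' deposited table, 0.00117 (chromosome 14, 89652475 to 89653451). At low glucose it held 46 HNF4A reads and 1 IgG read as listed, where the true number may be 0, and at high glucose 33 and 18. Its ratios were 5.50 (2.95 to 10.83) and 0.73 (-0.14 to 1.64). EPS8L2, an actin-regulating gene, followed at p = 0.0121 in the authors' deposited table, with 104 and 22 reads at low and 120 and 63 at high glucose (chromosome 11, 705876 to 708401). The E3 ubiquitin ligase gene RNF126 had p = 0.0154 in the authors' deposited table, with 35 and 2, then 39 and 20 reads. FAM83A, which signals downstream of the EGF receptor, had 67 and 12, then 92 and 46. Of the 10 with the lowest p, SDPR, a caveolae protein gene, was the one with an HNF4A interval below 0 under the deposited scaling. It had 44 HNF4A reads at low and 28 at high glucose, at -0.79 (-1.53 to -0.07), with IgG at 6 and 14. With libraries scaled by their sums, the HNF4A interval lay below 0 in 3 of the 10, FOXN3 and SCAF11 included, and above 0 in 0. In the authors' deposited table for high glucose, 4.96% of all regions and 0 of the 824 had a p under 0.05.

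The authors also compared the 2 HNF4A libraries with each other. In the authors' deposited table for that comparison, 4 of the 824 were higher at high glucose at an unadjusted p under 0.05, against 4.39% of all regions. The authors' deposited table held 6 lower at high glucose, against 0.225% of all regions, which is 12 regions in all. The lowest FDR of the class in that authors' deposited table was 0.914, and 0 passed 0.05. SCRN1, a secernin gene, had the lowest p in the authors' deposited table, 0.00192, with 19 HNF4A reads at low and 3 at high glucose and IgG at 6 and 17. Its log2 ratio for HNF4A was -2.80 (-5.20 to -1.03).

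The 12 regions with HNF4A at least 2-fold higher at low glucose were looked up after their values were seen. They were short, at 111 to 636 bp, and held 12 to 47 HNF4A reads at low glucose. MIR135A2, a microRNA gene, had the most (chromosome 12, 98003630 to 98004265), with 47 HNF4A reads at low and 21 at high glucose, at -1.30 (-2.11 to -0.53). Its IgG reads were 8 and 13, at 0.68 (-0.70 to 2.16), so its ratio over IgG went from 2.53 (1.43 to 3.82) to 0.55 (-0.52 to 1.67). SMU1, a splicing factor gene, had 41 and 22 HNF4A reads, at -1.03 (-1.85 to -0.25), and 8 and 32 IgG reads (chromosome 9, 33076427 to 33076938). PRKCI, an atypical protein kinase C of cell polarity, had 34 and 16 HNF4A and 13 and 28 IgG reads. SEC61G, a subunit of the channel into the endoplasmic reticulum, had 32 and 17 against 8 and 18. MIR4436A had 25 and 10 against 9 and 20. DNAH5, a dynein of cilia, had 13 HNF4A reads at low and a listed 1 at high glucose, at -3.84 (-9.25 to -1.10), with IgG at 2 and 10. RNLS, CPLX1, FAM185A, ASH2L, SCRN1 and a region with no named gene made up the rest. The last lay on a contig assigned to chromosome 9 without a set position. Regions of that contig had a median of 122 scaled IgG reads per kilobase at low glucose, against 17.0 over all regions. IgG was higher at high glucose in all 12 with either scaling.

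Few regions met the rule whatever its setting. Of the 824, 5 met the rule in all 5 ways of setting it, those of the closing section included, among them the regions closest to FITM2, MYO18A, C10orf76 and ZNF235. FITM2, which partitions fat into lipid droplets, held 68 HNF4A and 20 IgG reads at low glucose, and 50 and 37 at high glucose (chromosome 20, 42939332 to 42940306). HNF4A between glucose levels stood at -0.58 (-1.14 to -0.03) and IgG at 0.87 (0.05 to 1.73), or at -0.89 (-1.45 to -0.34) and 0.56 (-0.26 to 1.42) with libraries scaled by their sums. These 5 were found by looking for stability in the same reads and are not a separate test.

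Gene lists for liver metabolism and for signalling were read by counting how many of their regions fell in the class, against 15.5% of all regions. Of 16 pathway and marker lists, 40 regions in all were low glucose only. IgG was higher at high glucose in all 40, or in 39 with libraries scaled by their sums over all regions, where the share was 99.3% in the class and 77.9% over all regions. The interval of HNF4A between glucose levels lay above 0 in 2 of the 40 (0 with that other scaling), against 8.86% of the class and 25.8% of all regions, and below 0 in 0 (1 with that other scaling). The interval of the drop in ratio lay above 0 in 7 of the 40, against 27.4% of the class.

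Liver transcription factors had 5 of 11 regions in the class (45.5%), with a median of 0.16 for HNF4A and 0.54 for IgG at high over low glucose. RXRA, the retinoid X receptor that pairs with many nuclear receptors, held 42 HNF4A and 6 IgG reads at low glucose, and 41 and 19 at high glucose (chromosome 9, 137227458 to 137228340). Its ratio over IgG was 2.78 (1.54 to 4.31) and then 0.96 (0.15 to 1.83). HNF4A reads there differed by 1 while IgG stood at 1.65 (0.27 to 3.26), or 1.33 (-0.05 to 2.95) with libraries scaled by their sums. The region of HNF4A itself held 35 and 17 reads at low and 43 and 25 at high glucose, with ratios of 1.02 (0.14 to 1.94) and 0.64 (-0.11 to 1.41). TBX3, a T-box repressor of liver development, had 60 and 16, then 47 and 22, with ratios of 1.88 (1.07 to 2.78) and 0.95 (0.19 to 1.75). GATA6, a GATA factor of endoderm, had 42 and 17, then 53 and 24, with ratios of 1.28 (0.43 to 2.18) and 0.997 (0.28 to 1.76). ONECUT1, the hepatic factor HNF6, had 9 and 4, then 19 and 17, with ratios of 1.14 (-0.70 to 3.30) and 0.01 (-1.01 to 1.05). Of these 5, the interval of the drop lay above 0 for RXRA only, at 1.82 (0.25 to 3.56).

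Of the metabolic lists, fatty acid metabolism had 2 of 18 regions in the class (11.1%): PNPLA2, the triglyceride lipase of lipid droplets, with 38 and 14 reads at low and 46 and 23 at high glucose, and ELOVL5, a fatty acid elongase, with 35 and 13, then 35 and 18. Lipoprotein and cholesterol genes had 1 of 11, the cholesterol exporter ABCA1, with 37 and 13, then 50 and 31. Glycolysis and glucose uptake had 1 of 16, PDK4, the kinase that shuts off pyruvate dehydrogenase, with 64 and 27, then 62 and 36. Gluconeogenesis and glycogen had 0 of 11. Hepatocyte secreted proteins had 3 of 10 (30.0%): IGFBP1, a binding protein of insulin-like growth factors, with 42 and 12, then 54 and 26, AMBP, the precursor of alpha-1-microglobulin, with 37 and 13, then 50 and 32, and AGT, angiotensinogen, with 19 and 8, then 16 and 9.

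Bile acid and drug metabolism had 1 of 9, a region of AHR, the aryl hydrocarbon receptor that senses xenobiotics (chromosome 7, 17337930 to 17339332). It held 47 HNF4A and 14 IgG reads at low glucose, and 52 and 37 at high glucose. The ratio over IgG was 1.72 (0.84 to 2.70) at low and 0.34 (-0.29 to 0.99) at high glucose. Another AHR region (17138801 to 17139593) fell in the opposite class, high glucose only, with 22 and 15 reads at low and 98 and 13 at high glucose. The remaining AHR region (17251599 to 17252357) was above the limit at both, with 19 and 7, then 22 and 5. Over the pathway lists, genes with a low-glucose-only region had 21 other regions, 15 above the limit at both glucose levels, 5 at neither and that 1 of AHR at high glucose only.

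The AMPK and mTOR pathway, through which cells answer to energy and nutrient supply, had 6 of 31 regions in the class (19.4%), with medians of 0.19 for HNF4A and 1.1 for IgG. MARK2, an AMPK-related kinase of cell polarity, had 2 of them on chromosome 11. The first (63606162 to 63607031) held 40 and 11 reads at low and 38 and 54 at high glucose, with ratios of 1.84 (0.85 to 2.95) and -0.65 (-1.29 to -0.03). The second, from 63655584 to 63656714, held 49 and 14, then 53 and 28. RICTOR, which defines mTOR complex 2, had 24 and 7, then 22 and 29, with HNF4A below IgG at high glucose. PRKAG2, the AMPK gamma 2 subunit, had 2 regions in the class, with 38 and 18, then 55 and 31, and with 35 and 16, then 58 and 35. TSC1, an inhibitor of mTOR complex 1, had 13 and 5, then 24 and 11. The autophagy list had 2 of 10, GABARAPL1 with 98 and 48, then 128 and 76, and ATG14 with 11 and 3, then 20 and 18.

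**Figure D4:**
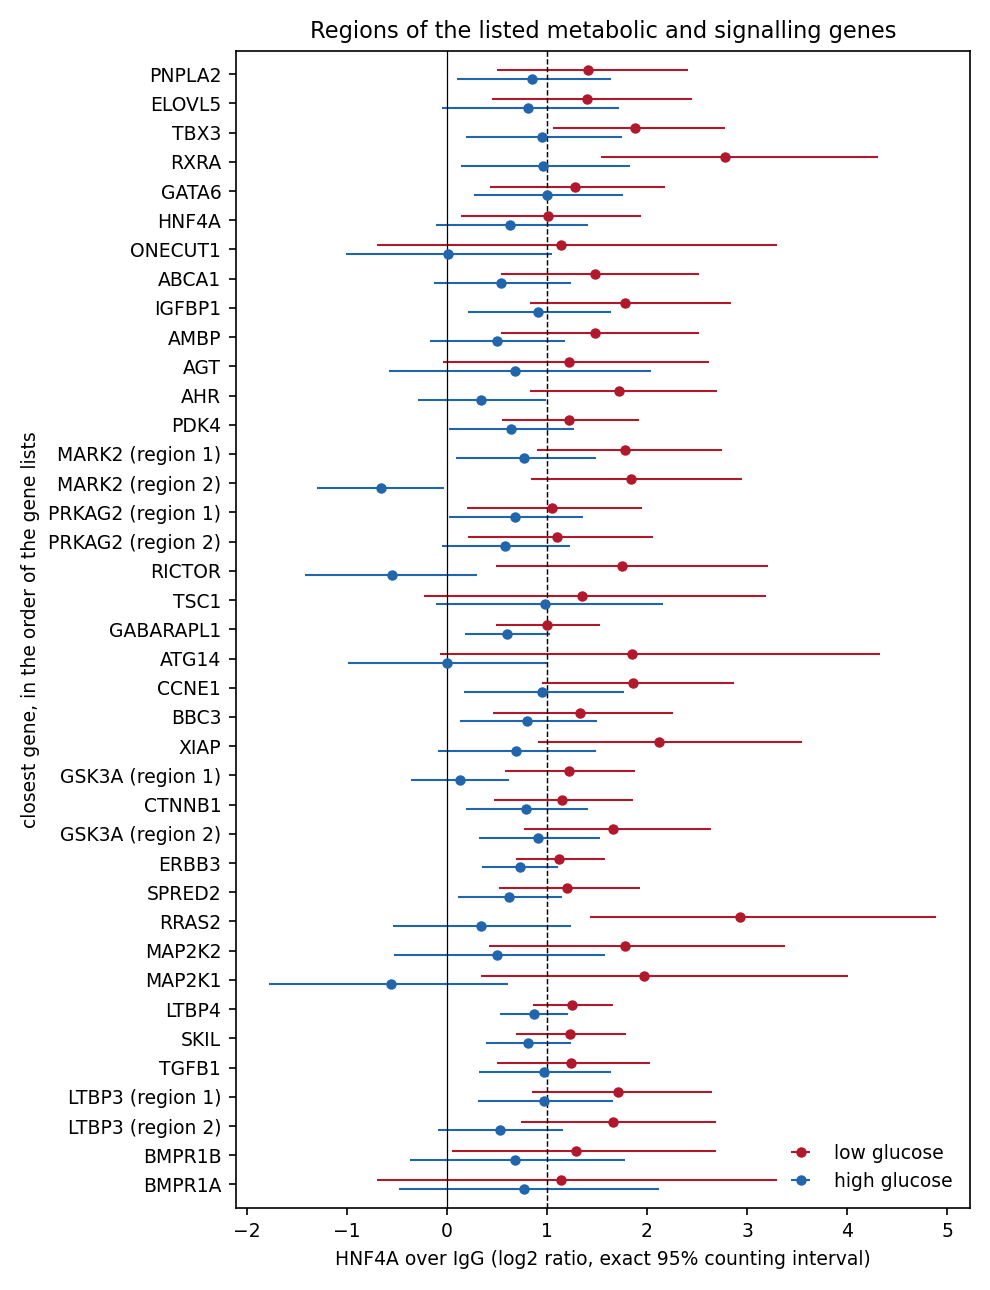
Log2 HNF4A over IgG ratio at low and at high glucose, with exact 95% counting intervals, for 39 of the 40 low-glucose-only regions closest to genes of the pathway lists. The low-glucose points lie right of the limit at 1 and the high-glucose points left of it, and the 2 intervals lie apart in 3 of them, those of RICTOR, RRAS2 and 1 MARK2 region.

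Growth and differentiation pathways added further regions. TGF-beta and SMAD signalling had 7 of 25 (28.0%), with medians of 0.20 for HNF4A and 0.82 for IgG, and LTBP4 above was the one with most reads. SKIL, a repressor of SMAD signalling, held 98 and 41 reads at low and 142 and 73 at high glucose (chromosome 3, 170073951 to 170076569). The ligand gene TGFB1 had 53 and 22, then 65 and 30. LTBP3, another latent TGF-beta binding protein, had 2 regions, with 50 and 15, then 63 and 29, and with 42 and 13, then 59 and 37. The receptor genes BMPR1A and BMPR1B had at most 23 HNF4A reads in either library. MAPK and RAS signalling had 6 of 27 (22.2%), with medians of 0.03 and 1.08. RRAS2, a RAS-related GTPase, held 31 and 4, then 28 and 20 (chromosome 11, 14402449 to 14403216), with ratios of 2.93 (1.43 to 4.89) and 0.34 (-0.54 to 1.24). ERBB3, a receptor of neuregulins, had 140 and 63, then 169 and 92. SPRED2, an inhibitor of RAS signalling, had 61 and 26, then 87 and 51, and the kinase genes MAP2K1 and MAP2K2 had at most 22 HNF4A reads. The Wnt list had 3 of 29: CTNNB1, which encodes beta-catenin, with 61 and 27, then 69 and 36, and 2 regions of the kinase GSK3A, with 71 and 30, then 80 and 66, and with 45 and 14, then 75 and 36. Cell cycle and survival had 3 of 13: CCNE1, cyclin E1, with 48 and 13, then 45 and 21, BBC3, the p53 target PUMA, with 41 and 16, then 56 and 29, and XIAP, a caspase inhibitor, with 31 and 7, then 41 and 23. Epithelial and mesenchymal markers had 0 of 8. Markers of blood and stromal cells had 0 of 1 and those of neurons and muscle 0 of 9.

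Families grouped by symbol stood near the all-region share. Genes with a zinc finger symbol had 23 of 136 regions in the class (16.9%), with medians of 0.03 for HNF4A and 0.90 for IgG. The 23 include ZNF561-AS1, an antisense RNA gene. ZNF274, a repressor bound at zinc finger gene clusters, held 109 and 47 reads at low and 100 and 86 at high glucose, and the interval of its drop ran from 0.44 to 1.80. ZNF592 had 90 and 37, then 88 and 71. IgG was higher at high glucose in 22 of the 23, or in 20 with libraries scaled by their sums. Genes with a symbol of the solute carriers, a family of membrane transporters, had 16 of 100 (16.0%), with medians of 0.10 and 1.26. The 16 include SLC25A5-AS1, an antisense RNA gene, and SLC7A5P2, a pseudogene. SLC22A18, an imprinted organic cation transporter gene, held 79 and 33, then 130 and 93, with HNF4A between glucose levels at 0.58 (0.17 to 1.01), or 0.27 (-0.14 to 0.70) with libraries scaled by their sums. SLC11A2, the iron importer DMT1, had 65 and 26, then 68 and 55. The interval of the drop lay above 0 in 10 of the 23 zinc finger regions, 9 of the 16 solute carrier regions and 3 of the 24 microRNA regions, against 27.4% of the class.

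By symbol, microRNA genes, the host genes MIR205HG and MIRLET7BHG included, were closest to 171 regions, 24 of them (14.0%) in the class. The 24 had medians of 0.15 for HNF4A and 0.94 for IgG. IgG was higher at high glucose in all 24, or in 23 with libraries scaled by their sums. Mature microRNAs bind targets mainly through their seed, bases 2 to 8. RefSeq listed a mature sequence for 17 of these genes. For 4 of the regions described here the mature sequence is given with the seed in capitals. No 2 of the 4 share a seed.
hsa-let-7a-5p: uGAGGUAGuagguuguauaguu
hsa-miR-193a-3p: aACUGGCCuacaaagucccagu
hsa-miR-194-5p: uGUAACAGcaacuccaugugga
hsa-miR-135a-2-3p: aUGUAGGGauggaagccaugaa

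MIRLET7A1, a let-7 gene whose product represses growth genes, was closest to a region on chromosome 9 (96927759 to 96929948), where 82 HNF4A and 39 IgG reads at low glucose stood beside 163 and 82 at high glucose. HNF4A was higher at high glucose there, at 0.86 (0.46 to 1.26), or 0.55 (0.15 to 0.95) with libraries scaled by their sums. IgG stood at 1.06, or 0.74. The ratio over IgG was 1.05 (0.48 to 1.63) at low and 0.84 (0.45 to 1.25) at high glucose. Its drop was 0.20 (-0.50 to 0.92), an interval that held 0. MIR194-2, which lies in a cluster of the liver and gut microRNAs miR-192 and miR-194, had 38 and 12, then 46 and 30 (chromosome 11, 64660687 to 64661407). MIR193A had 53 and 24, then 53 and 34. MIR135A2, described above, was the one of these 4 whose HNF4A interval lay below 0.

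Genes with more than 1 region seldom had all of them in the class. Of the 824 regions, 2 had no closest gene named and 2 carry a date in place of a gene name, counted here as names. The 822 with an entry lay closest to 803 genes, of which 19 had 2 such regions and 0 had more. Of these 803 genes, 172 also had 241 regions outside the class, 123 above the limit at both glucose levels, 31 at high glucose only and 87 at neither. SKIL, for example, had a second region above the limit at both (170048708 to 170049478), with 50 and 5 reads at low and 109 and 3 at high glucose. Protein-coding genes were closest to 86.0% of the 824 and to 83.1% of all regions, and long noncoding RNA genes to 7.04% and 7.17%. Transcribed pseudogenes were closest to 1.09% and 2.99%.

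By length, which the rule did not use, the class resembled the whole. Its median was 1003 bp, with a range of 111 to 4072 bp, against 1030 bp over all regions, 895.5 bp at both, 1014.5 bp at high glucose only and 1255.5 bp at neither. Regions of 2000 bp or more made up 7.16% of the class and 10.5% of all regions. With all regions cut into 4 equal groups by their mean level over the 4 libraries, the class held 15.3%, 18.4%, 17.1% and 11.1% of them from the lowest to the highest group. Within the class, the median IgG ratio of high over low glucose was 1.37, 1.1, 0.95 and 0.90 in those groups, and that of HNF4A went from -0.14 to 0.10, 0.14 and 0.24.

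The share of regions in the class differed between chromosomes. Among the 21 chromosomes with at least 50 regions it ranged from 9.25% on chromosome 8 (32 of 346, 6.41 to 12.8) to 26.3% on chromosome 14 (15 of 57, 15.5 to 39.7). Chromosome 20 had 10.5% (22 of 209) and chromosome 7 had 12.05% (60 of 498), while chromosome 22 had 22.4% (15 of 67), chromosome 15 had 21.7% (18 of 83) and chromosome 11 had 21.4% (64 of 299). The IgG background at low glucose also differed. IgG reads per kilobase were 20.7 on chromosome 8, 21.9 on chromosome 20 and 20.9 on chromosome 7, against 9.32 on chromosome 14, 9.64 on chromosome 22 and 10.9 on chromosome 15. Chromosome 11 lay between, at 16.2. Others did not follow that order: chromosome X had a share of 12.1% at 15.8 IgG reads per kilobase, chromosome 6 had 14.1% at 9.96 and chromosome 19 had 16.3% at 20.2. Over the 21 chromosomes Pearson's r of the share with that background was -0.621 and Spearman's rho -0.597. With the median IgG ratio of high over low glucose these were 0.532 and 0.555. The chromosomes share the same 4 libraries and the rule itself uses IgG reads, so the correlations are descriptions only.

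**Figure D5:**
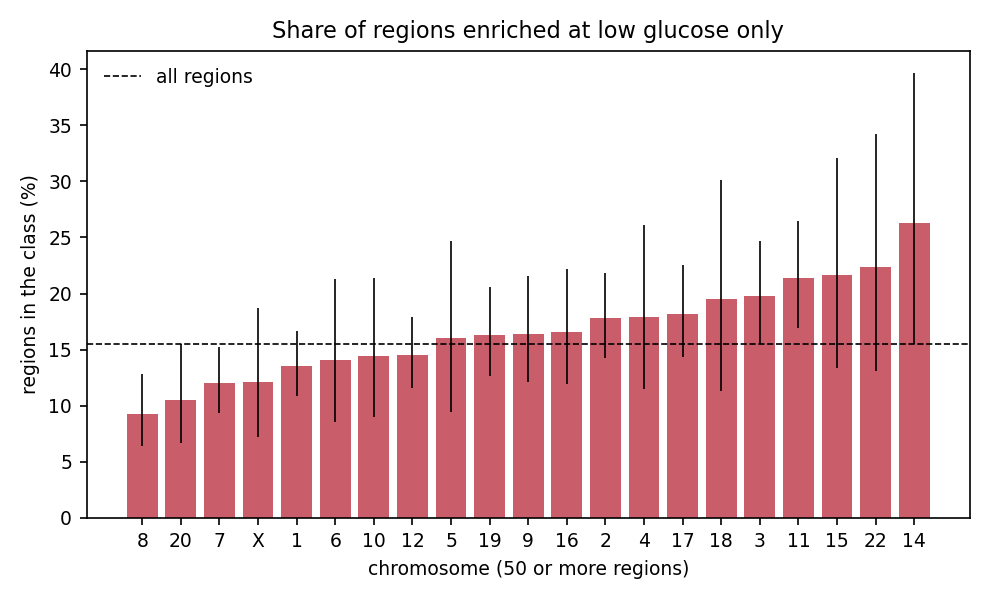
Share of regions in the low-glucose-only class, in percent with exact 95% intervals, for the 21 chromosomes with at least 50 regions, and a dashed line at 15.5%, the share over all regions. Chromosome 14 has the highest share, 26.3%, and chromosome 8 the lowest, 9.25%.

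Regions next to a low-glucose-only region were in the class about as often as any region. Adjacent regions within 100 kb gave the 824 a count of 691 neighbours, in which a region beside 2 members counts once for each. Of these, 116 (16.8%) were low glucose only, against 15.5% of all regions, and they are 58 pairs counted from both ends. A further 200 were above the limit at both, 49 at high glucose only and 326 at neither. Counting consecutive members, 112 of the 824 lay in 54 runs. The longest had 4 regions on chromosome 11, closest to C11orf95, MARK2 (2 regions) and RCOR2, a corepressor gene. C11orf95 held 41 and 19 reads at low and 59 and 33 at high glucose, and RCOR2 held 46 and 17, then 67 and 37. Runs of 3 lay at CDHR5, DRD4 and EPS8L2 on chromosome 11 and at GSK3A and ERF on chromosome 19. ERF, a repressor that ERK kinases switch off, held 110 and 43, then 168 and 79.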

How the data were processed

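Values come from 3 tables of 5326 regions deposited by the authors. Per the file headers they hold log2 levels, folds, p-values, FDR and closest genes. The submitters' processing notes name the build hg19 and, in no stated order, HOMER, DiffBind, MACS, Bowtie 1.1.2 and bcl2fastq. Settings, total depth and the choice of regions: not given in the sources used here. Unlogged levels were whole multiples of 1 step per library (100% within 0.001), which gave reads and relative library sizes of 1 (HNF4A low), 0.982 (IgG low), 1.10 (HNF4A high) and 0.993 (IgG high). Reads in the 824 regions totalled 35392, 13456, 43405 and 27315 in that order. A listed 1 may stand for 0. IgG at low glucose was listed at 1 in 10 of the 824, and HNF4A at high glucose in 2.

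Log2 ratios of scaled reads and exact 95% intervals were computed with Python 3.11.15, numpy 2.4.6, pandas 2.3.3 and SciPy 1.17.1, drawn with matplotlib 3.10.9 and tested on simulated data. With 1 library per group no test was run. The p-values and FDR are the authors', from their deposited tables. Starts are printed counted from 1. The class, the gene lists and the promoter search were chosen with earlier results of these data known. Named regions are the 10 with the largest drop, the 10 with most HNF4A reads at low glucose, up to 4 per list (further list members are also given), 3 on each side of each limit and those of lowest deposited p. RefSeq (GRCh38.p14) names matched 801 of the 824. No coordinates were converted. Some items that this rule names are not reported here.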

Additional observations from a re-analysis of the deposited data

Results flagged for a closer look

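In 112 of the 824 regions (13.6%) HNF4A stood above IgG at low glucose and below IgG at high glucose, opposite sides of 0 in the 2 comparisons. Over all regions 15.8% stood below IgG at high glucose, and the rule itself fixed the side at low glucose. Of the regions with the largest drop, the log2 HNF4A over IgG ratio at high glucose was -0.46 for TELO2, -0.43 for TMEM138, -0.35 for POP5, -0.12 for CDC42EP3 and -0.0352 for NCKAP1. Of those with HNF4A at least 2-fold higher at low glucose, it was -3.47 for DNAH5, -3.32 for the region with no named gene, -2.65 for SCRN1, -1.66 for CPLX1 and -1.63 for RNLS. MIR4436A stood at -1.15, ASH2L at -1.06, PRKCI at -0.954, SMU1 at -0.69, FAM185A at -0.30 and SEC61G at -0.23. Of the pathway lists, it was -0.65 for the MARK2 region that starts at 63606162 on chromosome 11, -0.561 for MAP2K1 and -0.545 for RICTOR. At low glucose all of these were at or above 1 by the rule. With 1 library per group the difference between glucose levels was not tested.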

How the results depend on the processing

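The reported class held 824 regions, with medians at high over low glucose of 0.12 for HNF4A and 1.08 for IgG, a median length of 1003 bp and a largest share on 1 chromosome of 9.34%. Stricter limits (1.5 at low, 0.5 at high glucose) left 126 regions, with -0.14 for HNF4A, 1.68 for IgG, 793.5 bp and 7.14%. With at least 20 HNF4A reads at low glucose and 10 IgG reads at each level 565 remained, with 0.14, 0.92, 1195 bp and 8.14%. Scaling by sums over all regions gave 588 regions, 281 of them shared with the 824, with -0.16 for HNF4A (all regions 0.05), 0.97 for IgG, 869.5 bp and 8.50%. Against the mean of the 2 IgG libraries 87 met the rule, with -0.31, 0.60, 752 bp and 4.60%. The HNF4A median thus changed sign under 3 of the 4 alternatives and stayed below the all-region median under all 4, while the IgG median stayed above 0 and above the all-region median. Stricter limits select larger drops by construction. Against a shared IgG mean, only regions with less HNF4A at high glucose can meet both limits, so the sign of that HNF4A median is fixed too. Scaling by sums moves the HNF4A ratio of every region by the same amount, and it also changes which regions meet the rule. The cause of the other shifts was not tested. The share of regions with an HNF4A motif and its alternative window were not run, since region letters were not used here. No paired analysis was possible because each group had 1 library, and leaving out a replicate was not possible either. Few reads per region limit each ratio, as the counting intervals show.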
